A study of Rattus norvegicus with 11 samples.

Results

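The genes described here encode potassium channels: every probe set whose single annotated gene symbol starts with Kcn, apart from Kcnmb1. The rule found 125 probe sets for 74 genes, of 31099 probe sets and 14218 named genes on the array, and 31 of the genes have more than 1 probe set, up to 6. By the symbols, 73 probe sets (42 genes) belong to the voltage-gated class, 10 (6 genes) to the calcium-activated class, 26 (15 genes) to the inward rectifiers and 16 (11 genes) to the two-pore channels. The calcium-activated class so drawn takes in Kcnt1, which encodes a sodium-activated channel. Of the genes, 11 voltage-gated (Kcnab, Kcne and Kcnip families) and 1 calcium-activated (Kcnmb4) encode accessory subunits, and the others encode the subunits that line the pore. The rule used no measured value, but it was set with earlier results of these data known.

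The tissue was whole lung from Dahl salt-sensitive rats weighing 250 to 350 g, with 1 array per labelled replicate. The time of 3.5 weeks, the same for every group analysed, is given as a time point and not as an age. One group breathed room air (normoxia, 4 arrays) and another about 9.5% oxygen (hypoxia, 4 arrays). The last group (3 arrays) had the same hypoxia and was given SU-5416, which blocks receptors of vascular endothelial growth factor (VEGF). The series text names vehicle for the normoxia and hypoxia groups. No group is labelled as given SU5416 in room air, and a group also given sorafenib was not analysed here. The lung vessels were perfused before the tissue was taken. The labels do not say that each array is a different animal, so the p-values measure only the spread between these arrays, and the number of arrays limits the precision.

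Potassium channels let potassium leave the cell and so hold the membrane potential of resting and excitable cells. In pulmonary artery smooth muscle, voltage-gated channels (Kcna5 among them) and the two-pore channel Kcnk3 keep the membrane polarised; when they close, the cell depolarises, voltage-gated calcium channels open and the vessel constricts. Acute hypoxia closes some of these channels, loss-of-function variants of the human form of Kcnk3 are a known cause of heritable pulmonary arterial hypertension, and epithelial cells of the airway and alveolus use other family members to drive chloride and fluid transport.

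No potassium channel probe set differed between groups at an adjusted p below 0.05 (limma, Benjamini-Hochberg over 31042 probe sets): the count was 0 of 125 between hypoxia and normoxia, 0 between hypoxia with SU5416 and normoxia, and 0 between the SU5416 group and hypoxia alone. Of all probe sets, 0.00644%, 0.0612% and 0.0258% passed in these comparisons. At an unadjusted limma p below 0.05 there were 12 of the 125 (9.6%) in hypoxia against normoxia, beside 11% of all probe sets: 4 were higher in hypoxia (3.33% of all were) and 8 lower (7.64% of all). With SU5416 added there were 8 (6.4%, beside 12.4% of all) against normoxia, 5 of them higher (4.82% of all) and 3 lower (7.57% of all). Against hypoxia alone there were 13 (10.4%, beside 7.47% of all), 10 of them higher (4.02% of all) and 3 lower (3.45% of all). The arrays of the 2 groups did not overlap for 3 potassium channel probe sets (2.4%) in hypoxia against normoxia, where 6.13% of all probe sets did not overlap. For hypoxia with SU5416 the counts were 9 (7.2%, against 11.9% of all) beside normoxia and 12 (9.6%, against 11.5% of all) beside hypoxia. The potassium channels thus stood near or below the array as a whole on these counts, except for the probe sets at an unadjusted p below 0.05 that were higher with SU5416 than in hypoxia alone; 5 of those 10 were below background in every group. The comparisons share their control arrays, so these counts are not independent of each other.

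The median over the 125 probe sets was -0.05 log2 in hypoxia against normoxia (55 higher, 70 lower), beside -0.04 over all probe sets. It was -0.07 (53 higher, 72 lower) beside -0.04 in hypoxia with SU5416 against normoxia, and 0.06 (74 higher, 51 lower) beside 0.01 in hypoxia with SU5416 against hypoxia. In size, regardless of sign, the median difference was 0.24, 0.22 and 0.21 for potassium channels beside 0.18, 0.20 and 0.17 for all probe sets. Differences over 0.5 log2 numbered 26 (20.8%, beside 14.9% of all), 19 (15.2%, beside 16.9%) and 25 (20%, beside 12.9%). Among probe sets above background in at least 1 group these shares were 12.6%, 9.2% and 17.2%, beside 11.2%, 13.7% and 9.47% of all. The median standard error (SE) of a difference was 0.25, 0.27 and 0.27 for potassium channels against 0.19, 0.20 and 0.20 for all probe sets, so the channels were measured less precisely than most genes. Because lung tissue is a mixture, fewer cells of a type and less RNA per cell cannot be told apart in any of these values.

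**Figure D1:**
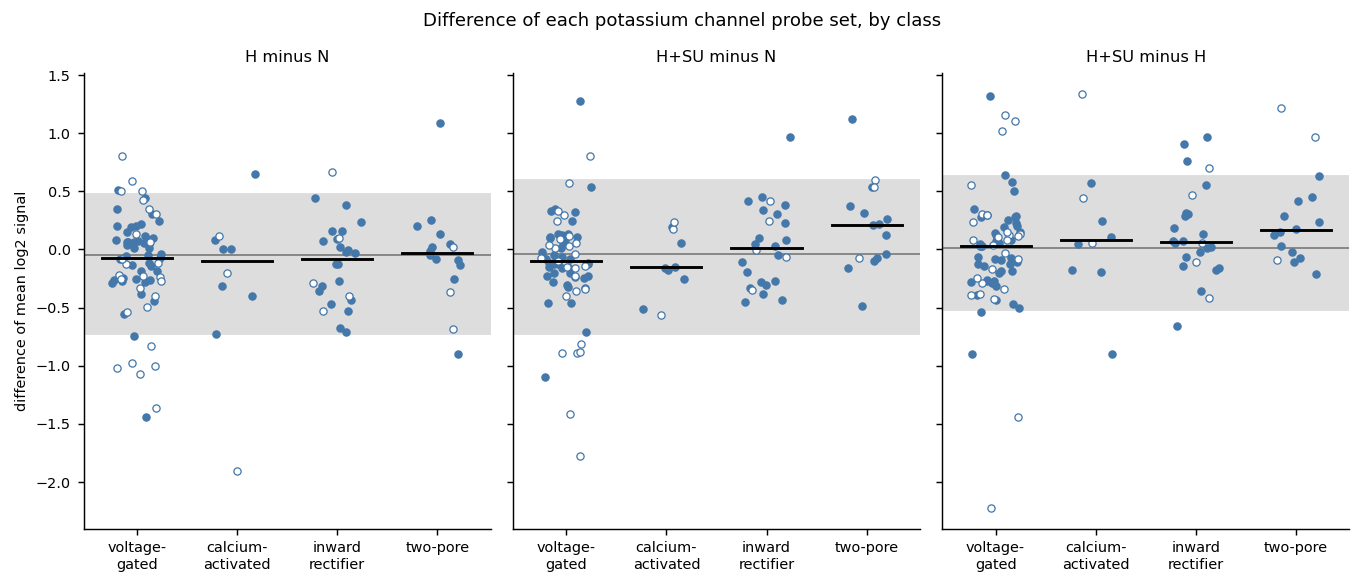
Difference of mean log2 signal of each of the 125 potassium channel probe sets by class, in the 3 comparisons (N, normoxia; H, hypoxia; H+SU, hypoxia with SU5416). Filled points are probe sets above background in at least 1 group, open points those below it in all groups, black lines the class medians, the grey line the median and the grey band the 5th to 95th percentile of all 31042 probe sets; most channels lie inside the band, and open points are common among the widest differences.

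Low signal was common among these probe sets. Background was set at 5.72 log2, the level that 95% of the values of the 27 Bacillus control probe sets, which rat RNA should not bind, stayed below. The mean signal was above it in at least 1 group for 87 of the 125 probe sets (69.6%), compared with 84.3% of all probe sets, and 62 probe sets for 47 genes were above it on all 11 arrays. Among voltage-gated genes 27 of 42 were above background on every array, and in the calcium-activated class 3 of 6 (Kcnma1, Kcnmb4 and Kcnt1). Among inward rectifiers 10 of 15 were, and among two-pore channels 7 of 11. Among the other genes, Kcna1, Kcna4, Kcnb2, Kcnc1, Kcnc2, Kcne1, Kcnn1, Kcnj9, Kcnj10 and Kcnk10 were below background in all 3 groups in every probe set, as were Kcnn4, Kcnj1, Kcnh4, Kcnh5, Kcnh6 and Kcnh8. For these genes the arrays give no usable difference and no fold is given.

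By class, the voltage-gated probe sets had a median difference of -0.07 in hypoxia and -0.10 in hypoxia with SU5416 against normoxia, with 26 of 73 higher in the latter. The two-pore probe sets had medians of -0.03 and 0.21, with 10 of 16 higher with SU5416, and the inward rectifiers -0.08 and 0.01. The calcium-activated probe sets had -0.10 and -0.15. In hypoxia with SU5416 against hypoxia the medians were 0.03 for the voltage-gated and 0.085 for the calcium-activated class. They were 0.06 for the inward rectifiers and 0.17 for the two-pore class, beside 0.01 for all probe sets. Accessory subunits were higher in hypoxia than in normoxia for 17 of 25 probe sets (median 0.07) and pore subunits for 38 of 100 (median -0.12). Of all probe sets on the array, 42.4% were higher in hypoxia and 44.5% in hypoxia with SU5416 than in normoxia. Since no potassium channel probe set passed the test, the class values are descriptions of the means. Among probe sets above background in at least 1 group the medians were 0.01 and -0.10 for the voltage-gated class (24 and 15 of 46 higher), the first with its sign turned. They were -0.01 and 0.21 for the two-pore class, -0.03 and 0.03 for the inward rectifiers and 0.004 and -0.16 for the calcium-activated class. In hypoxia with SU5416 against hypoxia they were -0.02 for the voltage-gated and 0.05 for the calcium-activated class. The inward rectifiers had 0.07 there and the two-pore class 0.15. Of those above background, 12 of 16 accessory (median 0.06) and 30 of 71 pore probe sets (median -0.05) were higher in hypoxia. Over the whole array 44% of probe sets above background were higher in hypoxia, and 45.6% with SU5416. The plot of differences by class shows the medians over all probe sets of a class with the probe sets around them.

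The channels best known from pulmonary artery muscle belong to a panel of genes chosen for their known roles and given whatever their values. Earlier results of these data were known when the panel was chosen. Kcna5 encodes Kv1.5, an oxygen-sensitive voltage-gated channel of pulmonary artery muscle. Its log2 signal was 7.39, 7.49, 7.32 and 6.54 on the normoxia arrays, 7.41, 7.88, 7.30 and 7.35 in hypoxia, and 7.07, 7.02 and 7.08 in hypoxia with SU5416. All 3 SU5416 arrays lay below the 4 hypoxia arrays, whereas normoxia spanned both because of its 4th array. The difference of hypoxia from normoxia was 0.30 (95% confidence interval (CI) -0.17 to 0.77; limma adjusted p = 0.631), that of hypoxia with SU5416 from normoxia -0.13 (CI -0.64 to 0.38; adjusted p = 0.857), and that of hypoxia with SU5416 from hypoxia -0.43 (CI -0.94 to 0.08; adjusted p = 0.743). The second was 0.13 when normoxia arrays 1 and 2 were left out. Without normoxia array 4 it was -0.34 (limma adjusted p = 0.419), with the SU5416 arrays then below all normoxia arrays left, and the first was 0.09.

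Smooth muscle markers differed in the other direction: the mean of 10 markers, all above background, was 10.26 to 10.52 log2 on the normoxia arrays, 10.18 to 10.71 in hypoxia and 10.76 to 10.94 with SU5416, with 10 of 10 markers higher in hypoxia with SU5416 than in hypoxia alone. None of the 10 passed the test, and 5 had an unadjusted limma p below 0.05 between the hypoxic groups, beside 7.47% of all probe sets. The part of these markers in the Kcna5 values was not tested.

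Kcnk3 encodes TASK-1, the acid-sensitive two-pore channel that sets the resting potential of these muscle cells. Its brightest probe set read 9.41, 9.35, 8.97 and 9.06 in normoxia, 9.47, 9.58, 9.33 and 9.20 in hypoxia, and 9.39, 9.42 and 9.17 in hypoxia with SU5416, and the groups overlapped throughout. The differences were 0.20 (CI -0.10 to 0.50; limma adjusted p = 0.619), 0.13 (CI -0.20 to 0.45; adjusted p = 0.764) and -0.07 (CI -0.40 to 0.25; adjusted p = 0.941) in the 3 comparisons in the order above.

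A dimmer Kcnk3 probe set gave larger and less precise values for the same gene. It read 4.10, 4.81, 6.32 and 6.71 in normoxia, 7.19, 6.36, 6.07 and 6.68 in hypoxia, and 6.79, 7.07 and 5.96 with SU5416. Normoxia arrays 1 and 2, both under background there, account for the low normoxia mean, and the groups overlapped. The normoxia mean was below background, so the hypoxia mean was at least 1.81-fold and the SU5416 mean at least 1.86-fold higher, with normoxia taken at background (limma adjusted p = 0.50 and 0.48). Between the hypoxic groups the interval of its difference ran from -1.29 to 1.36. Those 2 normoxia arrays also had the widest gap between the 3′ and 5′ probe sets of beta-actin, a sign of less intact RNA. The gap was 2.24 and 1.33 log2 on them, against 0.51 to 0.87 on the other 9 arrays. Its part in the probe set's values was not tested. The third Kcnk3 probe set was below background in all groups.

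Kcns3, a silent subunit that modifies other voltage-gated channels and is found in pulmonary artery muscle, read 10.38 to 10.86 in normoxia, 10.65 to 10.88 in hypoxia and 10.53 to 11.02 with SU5416. Its differences of 0.10, 0.13 and 0.03 had intervals within -0.31 and 0.47, among the tightest of the panel. Kcnq1, an epithelial and cardiac channel that pairs with Kcne subunits, had means of 8.66 ± 0.19 (SD, n = 4), 8.72 ± 0.31 (n = 4) and 8.59 ± 0.19 (n = 3). Kcnab1, the beta subunit that speeds inactivation of Kv1 channels, had means of 8.28 ± 0.28, 8.30 ± 0.09 and 8.19 ± 0.11. Kcna2, another Kv1 pore subunit, varied more within normoxia (7.04 to 8.71) than between groups, and its interval in hypoxia against normoxia ran from -0.71 to 0.87.

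Among calcium-activated channels, Kcnma1 encodes the pore of the large-conductance channel that opposes constriction. Its brightest probe set read 7.32, 6.60, 6.79 and 6.63 in normoxia, 6.48, 7.39, 7.22 and 6.60 in hypoxia and 7.08, 6.83 and 7.19 with SU5416, with differences of 0.08 (CI -0.44 to 0.61), 0.19 (CI -0.38 to 0.76) and 0.11 (CI -0.46 to 0.68). Its accessory subunit Kcnmb4 gave 0.00, 0.06 and 0.05. Neither gene separated any pair of groups.

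The small- and intermediate-conductance channels Kcnn3 and Kcnn4, which act in endothelium-dependent hyperpolarisation, lay at the edge of detection. Kcnn3 read 6.31, 5.24, 6.12 and 7.06 in normoxia, 4.78, 6.20, 5.77 and 5.07 in hypoxia and 6.20, 5.43 and 6.44 with SU5416. The hypoxia mean was below background, and normoxia was at least 1.38-fold higher with hypoxia taken at background (limma adjusted p = 0.557). Kcnn4 read 4.69, 5.53, 6.11 and 6.01 in normoxia, 3.56, 5.04, 3.23 and 2.90 in hypoxia and 4.20, 5.61 and 5.25 with SU5416. All 3 group means of Kcnn4 were below background, so no difference is given.

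Inward rectifiers pass current more easily into the cell than out and stabilise the resting potential. Kcnj8, the pore of the ATP-sensitive channel of vascular muscle and pericytes, read 7.71, 8.08, 8.28 and 8.73 in normoxia, 8.76, 8.04, 8.11 and 8.52 in hypoxia and 8.83, 8.48 and 8.30 with SU5416, with differences of 0.15, 0.34 and 0.18. Kcnj11, the related pore of the pancreatic and cardiac form, gave -0.03, 0.10 and 0.13. Kcnj2, the strong rectifier of endothelium, muscle and macrophages, read 6.90, 7.19, 6.78 and 6.64 in normoxia, 6.91, 6.01, 6.16 and 6.56 in hypoxia and 6.58, 7.35 and 6.95 with SU5416. On 3 of the 4 hypoxia arrays it was lower than on every normoxia array, and the difference was -0.47 (CI -0.98 to 0.05; limma adjusted p = 0.494). Kcnj16, an epithelial partner of other rectifiers, had a difference of -0.02 in hypoxia and -0.20 in hypoxia with SU5416 from normoxia.

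Kcnj15, an inward rectifier of kidney and other epithelia, has a pair of probe sets that did not show the same pattern. The brighter one read 11.10, 11.50, 10.65 and 10.90 in normoxia, 11.38, 11.39, 11.71 and 11.43 in hypoxia and 11.69, 11.14 and 11.53 with SU5416. Its means in both hypoxic groups were above normoxia, by 0.44 (CI 0.01 to 0.87; limma adjusted p = 0.446) and 0.42 (CI -0.04 to 0.88; adjusted p = 0.448), and its difference between the hypoxic groups was -0.02. The dimmer one read 7.20, 7.68, 8.35 and 8.85 in normoxia, 8.47, 7.59, 7.66 and 8.34 in hypoxia, and 8.94, 9.05 and 8.96 with SU5416, so that the 3 SU5416 arrays were above all others by a narrow margin over normoxia array 4. That mean was 1.95-fold normoxia (0.96 log2, SE 0.37, limma adjusted p = 0.335) and 1.96-fold hypoxia alone (0.97, SE 0.37, adjusted p = 0.599), and without normoxia arrays 1 and 2 the first difference was 0.39. Both probe sets placed hypoxia with SU5416 above normoxia, but only the dimmer one separated it from hypoxia alone.

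Among two-pore channels other than Kcnk3, Kcnk1, a widely expressed channel of epithelium and other cells, read 8.91, 9.14, 9.001 and 8.65 in normoxia, 9.42, 9.03, 9.06 and 9.19 in hypoxia and 9.47, 9.31 and 9.13 with SU5416. Its SU5416 arrays overlapped normoxia only at the boundary (9.13 against 9.14), with a difference of 0.38 (CI 0.04 to 0.71; limma adjusted p = 0.349). Kcnk6, which is expressed in vascular muscle and endothelium, had means of 8.16 ± 0.36, 8.02 ± 0.31 and 8.47 ± 0.34, and a difference of 0.45 between the hypoxic groups (CI -0.09 to 1.00). Kcnk2, the mechanosensitive channel TREK-1, had a bright probe set with no separation (differences of -0.05, -0.16 and -0.11). Its dim one, at 5.52 to 5.68 in normoxia, 5.40 to 5.65 in hypoxia and 5.75 to 5.91 with SU5416, separated the SU5416 arrays from both other groups, but only those 3 arrays were above background, and only barely; the SU5416 mean was at least 1.07-fold higher than either other group, with those taken at background.

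**Figure D2:**
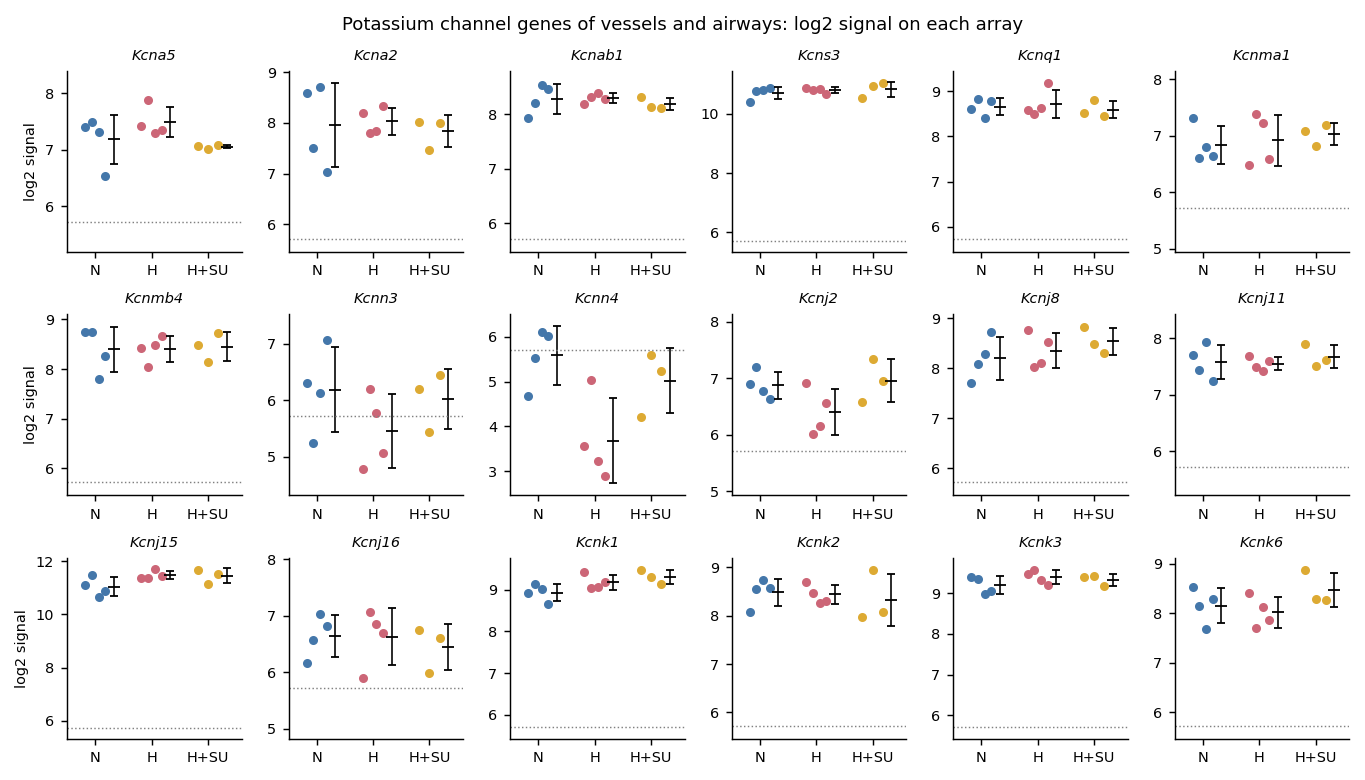
Log2 signal of the 18 panel genes on each of the 11 arrays, 1 probe set per gene (N, normoxia; H, hypoxia; H+SU, hypoxia with SU5416); each point is an array, bars are mean ± SD, the dotted line is background, and each gene has its own axis range. Kcna5 shows the 3 SU5416 arrays at 7.02 to 7.08 under the hypoxia arrays, and Kcnn3 and Kcnn4 straddle background.

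A further set of genes was named because the arrays of 2 groups did not overlap and the mean was above background. In hypoxia against normoxia this gave Kcnv1 and Kcnh3. Kcnv1, another silent subunit, read 7.19, 6.54, 6.40 and 6.43 in normoxia, 6.22, 5.75, 5.43 and 6.17 in hypoxia and 6.71, 5.93 and 6.55 with SU5416. Hypoxia lay under normoxia on every array and the SU5416 arrays lay across both, with a difference of -0.75 in hypoxia (SE 0.25, limma adjusted p = 0.357). Kcnh3, a voltage-gated channel of the ether-a-go-go-like family known from forebrain neurons, read 9.13, 9.12, 9.32 and 9.12 in normoxia, 8.55, 8.95, 9.07 and 9.05 in hypoxia and 9.30, 8.99 and 9.03 with SU5416. Hypoxia was lower by a narrow margin on 3 of 4 arrays, and the difference was -0.27 (SE 0.14, adjusted p = 0.509).

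Among probe sets above background, the largest difference of hypoxia with SU5416 from normoxia belonged to Kcnq5, which encodes a subunit of the slow, non-inactivating channels that vascular muscle uses to hold its resting potential. This probe set read 6.42, 6.02, 5.73 and 6.07 in normoxia, 6.53, 6.37, 6.77 and 4.39 in hypoxia and 7.25, 7.30 and 7.46 with SU5416. All 3 SU5416 arrays were above the other 8, and hypoxia array 4 was below background. The mean was 2.42-fold normoxia (1.28 log2, SE 0.48, limma adjusted p = 0.331) and 2.50-fold hypoxia alone (1.32, SE 0.48, adjusted p = 0.583). With hypoxia array 4 left out the difference from hypoxia was 0.78 (limma adjusted p = 0.429), and that from normoxia, still 1.28, reached a limma adjusted p of 0.0458. This was the one call of a potassium channel under any alternative that was run, and without that array 38 probe sets of the whole array were called in that comparison, against 19 with it.

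The other Kcnq5 probe sets did not show that size. The brightest read 8.77, 8.66, 9.02 and 9.31 in normoxia, 8.30, 8.81, 8.92 and 8.75 in hypoxia and 8.59, 9.13 and 8.75 with SU5416, with a difference of -0.12 from normoxia and 0.13 from hypoxia. The third read 7.90, 7.69, 8.44 and 7.77, then 7.66, 7.40, 7.96 and 7.001, then 7.98, 8.16 and 8.11 in the same order. Its SU5416 arrays were above all hypoxia arrays (0.58, adjusted p = 0.632) but within the range of normoxia (0.13). The 3 probe sets of this gene thus ranged over 1.39 log2 in the comparison with normoxia.

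Macrophage markers were higher with SU5416 as well: the mean of 7 measured markers, all above background, was 8.95 to 9.75 log2 in normoxia, 9.56 to 9.71 in hypoxia and 9.96 to 10.44 in hypoxia with SU5416. Those SU5416 arrays, like those of the first Kcnq5 and the dimmer Kcnj15 probe set, did not overlap the other groups. The same held for the smooth muscle markers given above, at 10.76 to 10.94 with SU5416 and at most 10.71 in hypoxia and 10.52 in normoxia. None of the 7 macrophage markers passed the limma test. Of them, 4 had an unadjusted p below 0.05 against either group, beside 12.4% (normoxia) and 7.47% (hypoxia) of all probe sets. The part of either marker list in either channel's signal was not tested.

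The sequence before the Kcnq5 and Kcnj15 start sites is shown because these genes had the widest differences with SU5416 among probe sets above background whose arrays did not overlap, and that of Kcns3 because it is a panel gene with little difference; the choice was made after their values were seen. SU5416 is also known to activate the aryl hydrocarbon receptor, whose element has the core GCGTG. Hypoxia-inducible factors bind elements with the core ACGTG or GCGTG, so a GCGTG match does not tell the receptor from these factors. Each line gives the 250 bases before the RefSeq start site (build GRCr8), read in the gene's own direction, with matches to GCGTG or ACGTG on either strand in capitals (CACGC is GCGTG on the other strand; matches may overlap).
Kcnq5, chr9:31891282-31891531, minus strand: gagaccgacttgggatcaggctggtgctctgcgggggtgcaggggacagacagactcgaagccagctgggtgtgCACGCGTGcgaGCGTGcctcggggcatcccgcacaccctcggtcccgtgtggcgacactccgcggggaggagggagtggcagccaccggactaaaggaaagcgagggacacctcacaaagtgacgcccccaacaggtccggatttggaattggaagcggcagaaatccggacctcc
Kcns3, chr6:39584106-39584355, minus strand: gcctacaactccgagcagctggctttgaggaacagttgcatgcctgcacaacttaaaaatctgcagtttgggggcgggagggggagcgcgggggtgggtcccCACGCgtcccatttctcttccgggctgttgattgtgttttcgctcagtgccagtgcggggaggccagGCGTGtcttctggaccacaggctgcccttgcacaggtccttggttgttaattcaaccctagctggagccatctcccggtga
Kcnj15, chr11:48070700-48070949, plus strand: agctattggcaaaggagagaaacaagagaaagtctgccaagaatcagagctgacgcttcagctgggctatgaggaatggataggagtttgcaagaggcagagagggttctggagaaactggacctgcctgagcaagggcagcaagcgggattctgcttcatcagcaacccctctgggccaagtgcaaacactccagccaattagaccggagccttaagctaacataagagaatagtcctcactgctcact
The Kcnq5 window holds 3 matches to GCGTG, which begin 176, 173 and 165 bases before the start, and the first 2 overlap. The Kcns3 window holds 2, at 148 and 81 bases, and the Kcnj15 window none, and none of the 3 windows holds ACGTG.

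RefSeq listed such a window for 51 of the 74 genes. GCGTG occurred in 19 of them (37.3%) and ACGTG in 7 (13.7%), against 25.9% and 16.6% of the 33469 windows of the same length in the table. The windows of potassium channel genes were richer in G and C, with a median of 64.0% against 51.2% for all. For the counts that follow, each gene was taken by its brightest probe set above background. For Kcnq5 this was the one that differed by -0.12 from normoxia with SU5416, and not the one at 1.28. Of 12 genes above background with GCGTG, 4 were higher in hypoxia with SU5416 than in normoxia (median difference -0.10), as were 11 of 28 without it (median -0.11). Of 6 genes with ACGTG, 4 were higher (median 0.15), as were 11 of 34 without it (median -0.12); these are descriptions with no test. A match is a run of letters and not evidence of a bound site.

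Kcnj3, a pore subunit of the G-protein-gated channel of atrial muscle, was the other inward rectifier that separated SU5416 from normoxia. The probe set read 7.40, 7.45, 7.63 and 7.37 in normoxia, 7.83, 7.53, 7.22 and 7.93 in hypoxia and 8.28, 7.71 and 7.77 with SU5416, a difference of 0.45 (SE 0.19, limma adjusted p = 0.383). The SU5416 arrays were above normoxia by a narrow margin (7.71 against 7.63 at the nearest pair). The other Kcnj3 probe sets gave 0.05 and -0.28 in that comparison, and in hypoxia against normoxia the 3 gave 0.16, -0.71 and 0.38. No direction can be read for Kcnj3 across its probe sets.

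In hypoxia with SU5416 against hypoxia alone, Kcna3, Kcnd3 and Kcnj4 were added. Kcna3 encodes Kv1.3, the voltage-gated channel of T lymphocytes and macrophages. It read 7.39, 6.61, 7.10 and 6.71 in normoxia, 6.65, 6.05, 6.52 and 6.34 in hypoxia and 7.18, 6.91 and 7.01 with SU5416. The hypoxia arrays were the low group: the SU5416 mean was 1.56-fold hypoxia (0.64 log2, SE 0.21, limma adjusted p = 0.526), and the hypoxia mean differed from normoxia by -0.56 (SE 0.19, adjusted p = 0.361), with normoxia and hypoxia overlapping.

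T and NK cell markers, 10 of 10 above background, were lower in hypoxia than in normoxia in 9 of 10 genes, and in 10 of 10 with SU5416. None passed the test, and 4 and 3 of these markers had an unadjusted limma p below 0.05, beside 11% and 12.4% of all probe sets. The mean of the T and NK cell markers was 8.17 to 8.80 log2 in normoxia, 8.08 to 8.29 in hypoxia and 8.09 to 8.25 with SU5416. The marker means of both hypoxic groups overlapped those of normoxia. The mean of the Kcna3 probe set was 6.95 in normoxia, 6.39 in hypoxia and 7.03 with SU5416. The macrophage markers given above were higher with SU5416 than in hypoxia alone in 6 of 7 genes (median 0.40 log2), and higher in hypoxia than in normoxia in 7 of 7 (median 0.20). The part of either marker list in the Kcna3 values was not tested.

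Kcnd3 encodes a pore of the fast transient current of heart and nerve, and Kcnj4 an inward rectifier of brain and heart. The Kcnd3 probe set read 8.72, 9.21, 8.71 and 8.83 in normoxia, 9.06, 9.39, 9.72 and 9.07 in hypoxia and 8.66, 8.95 and 8.71 with SU5416. The hypoxia mean was the highest of the 3, with a difference of -0.54 of SU5416 from them (SE 0.19, limma adjusted p = 0.57), whereas the other Kcnd3 probe sets gave -0.09 and -0.18. The Kcnj4 probe set read 9.34, 9.14, 8.76 and 9.31 in normoxia, 9.18, 9.10, 9.17 and 9.21 in hypoxia and 8.92, 8.87 and 8.63 with SU5416, a difference of -0.35 from hypoxia (SE 0.15, adjusted p = 0.639) and -0.33 from normoxia, where 1 normoxia array overlapped.

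**Figure D3:**
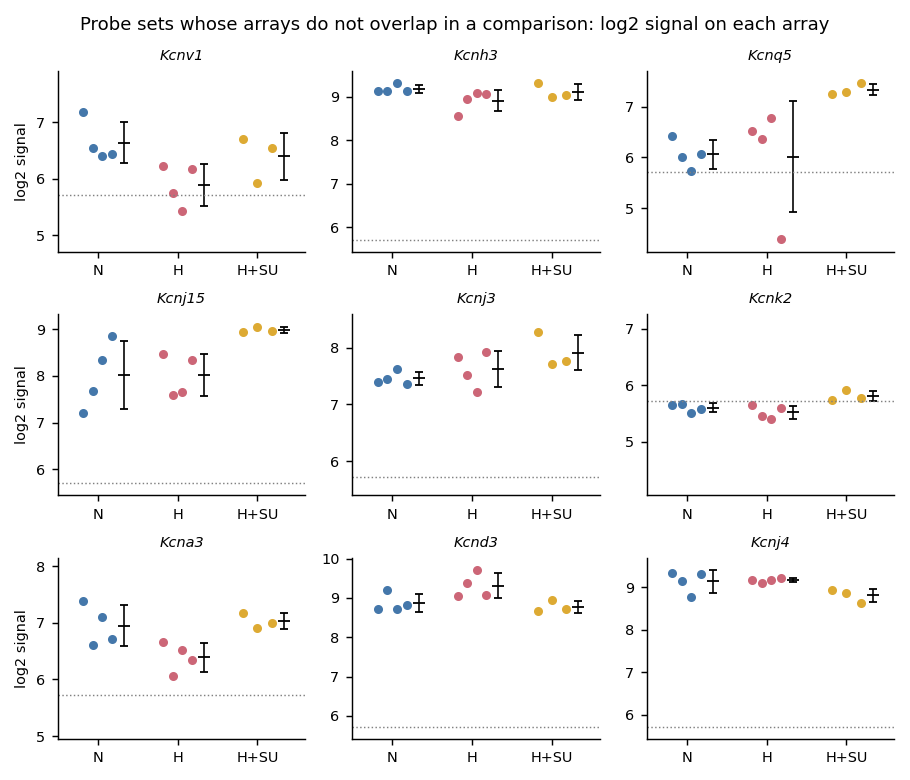
Log2 signal on each array of the 9 probe sets named because the arrays of 2 groups did not overlap and a group mean was above background (N, normoxia; H, hypoxia; H+SU, hypoxia with SU5416). Points are arrays, bars mean ± SD and the dotted line background; Kcnq5 shows the 3 SU5416 arrays at 7.25 to 7.46 above all others and hypoxia array 4 at 4.39 below background.

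Markers of cardiac muscle, which in rodents sheathes the lung veins, varied widely between arrays, and Kcnj3, Kcnj5 and Kcnd3 are channels that cardiac muscle expresses. The mean of the 9 measured cardiac markers, 8 of them above background, was 6.21, 9.02, 10.43 and 6.58 log2 on the normoxia arrays, 8.14, 8.18, 6.55 and 6.89 in hypoxia and 8.69, 8.27 and 6.78 with SU5416. Kcnj5, the partner of Kcnj3 in the atrial channel, read 8.19, 7.64, 7.84 and 7.61 in normoxia, 7.64, 7.43, 7.39 and 7.55 in hypoxia and 7.76, 7.33 and 7.46 with SU5416. On normoxia array 3, where the markers were highest, these probe sets of Kcnj3, Kcnj5 and Kcnd3 stood at 7.63, 7.84 and 8.71. On the same array another Kcnj3 probe set read 8.49, its highest of the 11 arrays, and another Kcnj5 probe set read 6.13, its highest along with hypoxia array 4. The third Kcnj3 probe set read 8.13 there and was highest on hypoxia array 4 (8.71). The other Kcnd3 probe sets read 8.11 and 7.49 there and were highest on other arrays. Hypoxia array 3, with markers at 6.55, held the highest signal of the Kcnd3 probe set given first (9.72). The part of cardiac muscle in the channel values was not tested.

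**Figure D4:**
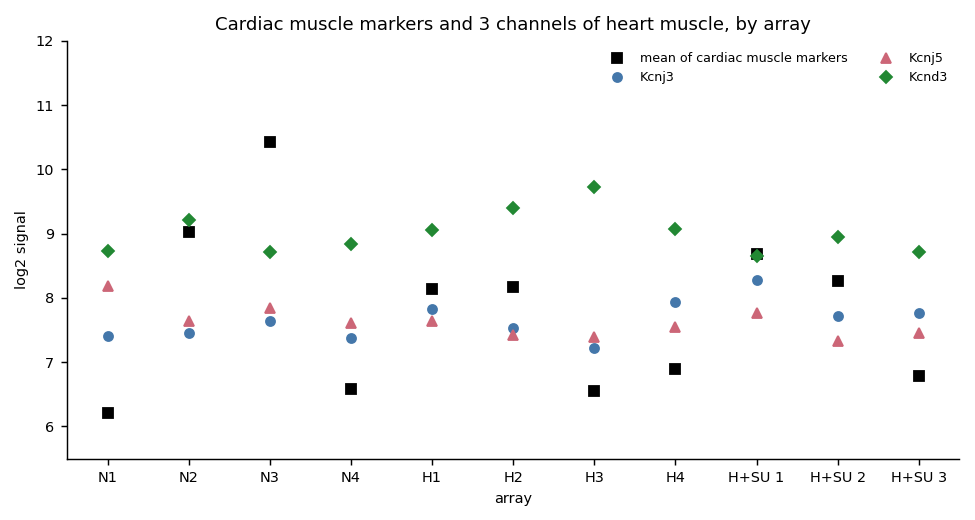
Mean log2 signal of 9 cardiac muscle markers and the log2 signal of Kcnj3, Kcnj5 and Kcnd3 on each of the 11 arrays (N, normoxia; H, hypoxia; H+SU, hypoxia with SU5416). The markers run from 6.21 to 10.43, Kcnj3 from 7.22 to 8.28, Kcnj5 from 7.33 to 8.19 and Kcnd3 from 8.66 to 9.72, each shown by 1 probe set.

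Where a gene had several probe sets above background, they often gave different signs. Of 23 such genes, all probe sets had 1 sign for 11 when hypoxia was set against normoxia, for 12 when the SU5416 group was, and for 10 between the 2 hypoxic groups. The probe sets of a gene were over 0.5 log2 apart in 4, 6 and 6 genes, with Kcnj3 the widest in the first and last (1.09 and 1.41) and Kcnq5 in the second (1.39). Kcnj6, a G-protein-gated rectifier, was the reverse case, with all of its probe sets above background lower in both hypoxic groups than in normoxia. The genes named above for a difference are thus in part named for 1 of their probe sets.

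**Figure D5:**
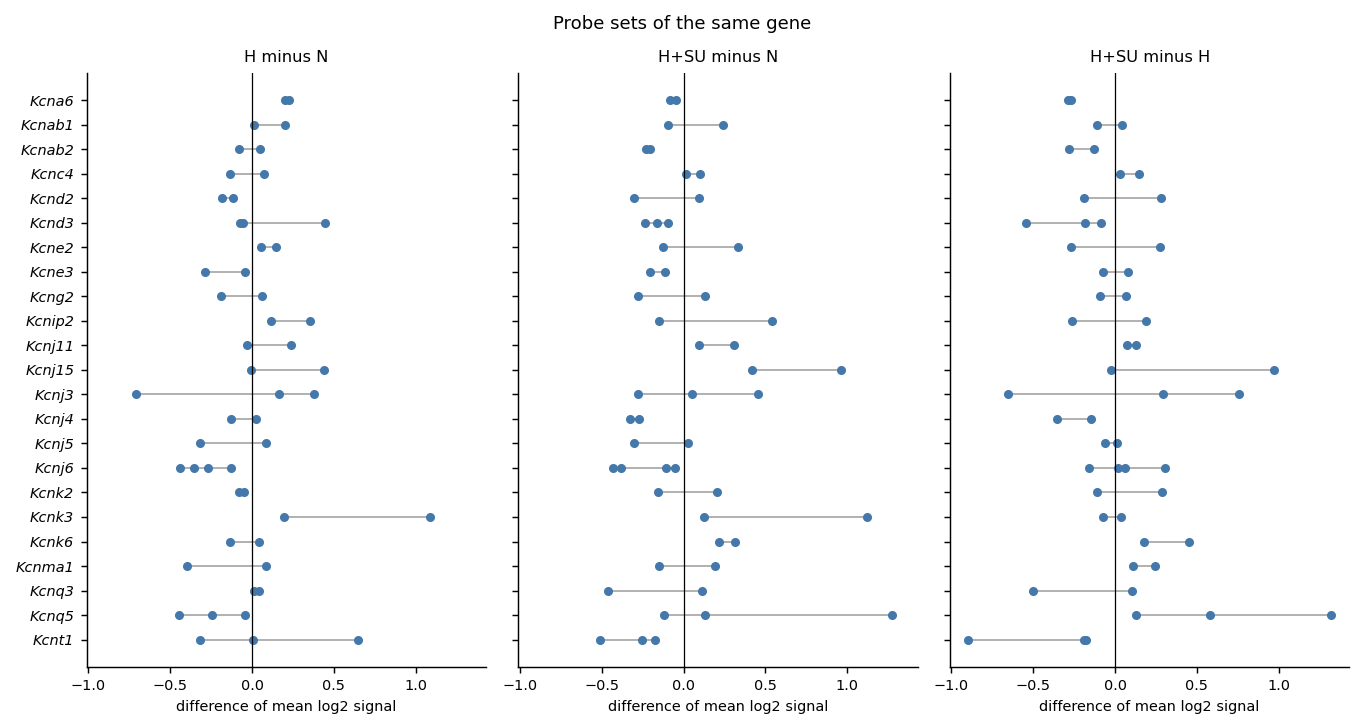
Difference of mean log2 signal of each probe set of the 23 potassium channel genes with more than 1 probe set above background, in the 3 comparisons (N, normoxia; H, hypoxia; H+SU, hypoxia with SU5416). Points are probe sets and lines join those of a gene; long lines for Kcnj3, Kcnq5, Kcnj15 and Kcnk3 show that their probe sets disagree in size or sign.

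Genes that work with the channels were taken from lists of partner subunits and of other ion transporters. Across 59 measured genes of 6 lists, 0 were called by limma in any comparison. In the 3 comparisons in the order above, 8, 7 and 6 had an unadjusted p below 0.05. Of all probe sets, 11%, 12.4% and 7.47% did. Of the 8 measured partner subunits, 7 were lower in hypoxia than in normoxia (median -0.23) and 7 lower with SU5416 (median -0.22), and the mean of the 8 was 7.82 to 7.92 log2 in normoxia, 7.53 to 7.63 in hypoxia and 7.56 to 7.67 with SU5416. Among them Dpp6, a partner of Kv4 channels, read 7.17, 7.22, 7.45 and 7.35 in normoxia, 7.07, 6.81, 6.94 and 7.22 in hypoxia and 6.90, 6.87 and 6.42 with SU5416, a difference of -0.57 with SU5416 (SE 0.15, limma adjusted p = 0.186). Abcc9, the sulfonylurea receptor that pairs with Kcnj8, was 9.67 to 10.02 in normoxia, 9.43 to 9.74 in hypoxia and 9.51 to 9.59 with SU5416 (-0.15 and -0.21 from normoxia). Dpp10 gave -0.25 and -0.44 from normoxia (limma adjusted p = 0.556 and 0.31). Lingo1 had the largest difference of the 8 in hypoxia, -0.90 from normoxia (limma adjusted p = 0.31). With SU5416 it was 0.02 from normoxia and 0.92 from hypoxia (adjusted p = 0.501), its SU5416 arrays above all hypoxia arrays.

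The remaining lists lay nearer to 0. Of 24 measured voltage-gated calcium channel genes, which admit the calcium that potassium channels hold back, 10 were higher and 14 lower in hypoxia (median -0.11), and 7 higher and 17 lower in hypoxia with SU5416 (median -0.15). The 12 measured genes of the sodium-potassium pump and its regulators had medians of -0.06 and 0.20. The 6 cation-chloride cotransporters had -0.21 and -0.13, the 6 calcium-activated chloride channels 0.08 and 0.20, and the 3 pacemaker channels of the Hcn family 0.09 and 0.03. In hypoxia with SU5416 against hypoxia the medians were -0.08 for the partner subunits, 0.03 for the calcium channels and 0.10 for the pump. There the cotransporters had -0.07, the chloride channels 0.14 and the pacemaker channels -0.15.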

How the data were processed

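Total RNA of 11 rat lung samples was hybridised to Affymetrix rat arrays (RMA, per the submitters' processing notes, no version). The deposited values are log2 signal, 1 per probe set and array. Their 2% trimmed linear mean is 499.98 to 500.03 on every array and their quantiles differ, a pattern of scaling to a target rather than of RMA's quantile step, so the summarisation is uncertain; whether genes were filtered is not given in the sources used here. Array medians were 7.80 to 8.01 log2, and correlations between arrays 0.9315 to 0.9693.

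The 57 array controls were left out and 31042 probe sets tested; 20832 probe sets name 1 gene and 436 several. All 11 arrays entered 1 limma fit (version 3.58.1 in R 4.3.3, using lmFit with eBayes and leaving 8 residual degrees of freedom), two-sided, with Benjamini-Hochberg adjustment and calls at an adjusted p below 0.05; intervals are 95%. The fit was tested on simulated data. A fold is the brighter over the dimmer mean, and a bound where 1 group is below background.

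The members, lists and panel were chosen with earlier results of these data known. Named genes are the panel, plus up to 6 genes per comparison of smallest p whose arrays did not overlap and whose mean was above background; Kcnk3's second probe set, Kcnj5 and Kcnj6 were added after their values were seen. Alternatives were 2 normalizations, 2 filters on low values, a fit of 2 groups, trend and robust options, array weights, the replicate block, the beta-actin gap, and arrays left out. Tables and figures used pandas 2.3.3 and numpy 2.4.6 under Python 3.11.15, with matplotlib 3.10.9 for drawing.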

Additional observations from a re-analysis of the deposited data

Results flagged for a closer look

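Within groups of 4 arrays, 3 of the 54 sets of values looked at for the named probe sets had 1 array far from the others, and chance alone would flag about 1 set in 20. In the dimmest Kcnq5 probe set, hypoxia array 4 read 4.39 log2 (4.392), below background, whereas the other hypoxia arrays read 6.37 to 6.77. In the brighter Kcnj15 probe set, hypoxia array 3 read 11.71 beside 11.38 to 11.43 on the other hypoxia arrays. For Kcnh3, normoxia array 3 read 9.32 (9.316) beside 9.12 to 9.13 on the other normoxia arrays.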

How the results depend on the processing

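The count of 0 called potassium channel probe sets held under all alternatives that were run between hypoxia and normoxia and between the 2 hypoxic groups. In hypoxia with SU5416 against normoxia it ranged from 0 to 1 as each array was left out, with 1 (Kcnq5, higher, limma adjusted p = 0.0458) without hypoxia array 4, where 38 probe sets of the whole array were called, and was 0 under every other alternative. Called probe sets over the whole array numbered 0 to 99 in hypoxia against normoxia (2 as reported, 99 without normoxia arrays 1 and 2), 6 to 214 in hypoxia with SU5416 against normoxia (19 as reported, 214 without probe sets of mean below the median), and 6 to 24 in the third comparison (8 as reported). With the replicate number as a block (replicate block) the count of called potassium channels was 0 in all 3 comparisons. The labels number the arrays of each group alike, but same-numbered arrays did not deviate together: the correlations of their deviations ran from -0.125 to 0.128 over 10 pairs, and 5 of 11 arrays matched best with an array of their own number. Other probe sets of a gene had 1 sign in 11, 12 and 10 of 23 genes. SU5416 below stands for hypoxia with SU5416.

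Of 81 named differences, 35 changed sign under at least 1 alternative, the largest of them 0.20 in size as reported, and the cause was not tested; 1567 of 1662 recomputed values kept sign and side of the threshold. With array quality weights, in hypoxia against normoxia Kcnab1 was -0.063 and Kcnq5 0.13. With the beta-actin gap as a covariate, in hypoxia against normoxia Kcnab1 was -0.11, Kcnj8 -0.026, Kcnq5 0.038 and Kcns3 -0.0011. In SU5416 against normoxia Kcna2 was 0.049, Kcna5 0.025 and Kcns3 -0.016 with that setting. In SU5416 against hypoxia Kcnj15 (brighter probe set) was 0.021 and Kcns3 -0.015 with that setting. After centring on the array median, in hypoxia against normoxia Kcnj11 was 0.057, Kcnj15 (dimmer probe set) 0.085, Kcnj16 0.071, Kcnk2 (bright probe set) 0.044, Kcnk2 (dim probe set) 0.0075 and Kcnq5 0.045. In SU5416 against hypoxia Kcns3 was -0.0077 with that setting. After quantile normalization, in hypoxia against normoxia Kcnj11 was 0.068, Kcnj15 (dimmer probe set) 0.10, Kcnj16 0.12, Kcnk2 (bright probe set) 0.024, Kcnk2 (dim probe set) 0.056 and Kcnq5 0.087. With the replicate block, in SU5416 against normoxia Kcnq1 was 0.0296. Without normoxia arrays 1 and 2, in hypoxia against normoxia Kcnab1 was -0.20, Kcnj8 -0.15, Kcnk6 0.042, Kcnq5 0.11 and Kcns3 -0.035. In SU5416 against normoxia Kcna5 was 0.13, Kcnd3 0.0017 and Kcns3 -0.0017 with that setting. With each array left out in turn, values in hypoxia against normoxia that crossed 0 ranged for Kcna2 from -0.23 to 0.33, Kcnab1 from -0.11 to 0.10, Kcnj11 from -0.15 to 0.084, Kcnj15 (dimmer probe set) from -0.28 to 0.27 and Kcnj16 from -0.18 to 0.22. They ranged for Kcnj4 from -0.10 to 0.091, Kcnj8 from -0.0082 to 0.33, Kcnk2 (bright probe set) from -0.18 to 0.037, Kcnma1 from -0.072 to 0.24 and Kcnmb4 from -0.19 to 0.13. They ranged for Kcnq1 from -0.10 to 0.13, Kcnq5 from -0.30 to 0.50 and Kcns3 from -0.01 to 0.15. With each array left out in turn, values in SU5416 against normoxia that crossed 0 ranged for Kcna2 from -0.43 to 0.13, Kcna3 from -0.034 to 0.22, Kcnd3 from -0.18 to 0.017, Kcnj11 from -0.018 to 0.21 and Kcnj16 from -0.36 to 0.029. They ranged for Kcnj2 from -0.11 to 0.27, Kcnk2 (bright probe set) from -0.46 to 0.018, Kcnmb4 from -0.14 to 0.21, Kcnn3 from -0.47 to 0.14 and Kcnq1 from -0.18 to 0.0002. With each array left out in turn, values in SU5416 against hypoxia that crossed 0 ranged for Kcnj15 (brighter probe set) from -0.14 to 0.13, Kcnj16 from -0.42 to 0.048, Kcnk2 (bright probe set) from -0.42 to 0.065, Kcnk3 from -0.14 to 0.0075 and Kcnma1 from -0.036 to 0.27. They ranged for Kcnmb4 from -0.087 to 0.21, Kcnq1 from -0.24 to 0.027 and Kcns3 from -0.065 to 0.18.

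Low signal limits the 38 probe sets below background in all groups, whose differences carry no fold.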

Other observations

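Levels over all 3 groups give a further description. The hypoxia group had the lowest of the 3 means in 51 of the 125 potassium channel probe sets (40.8%), against 35.3% of all probe sets, and the highest in 32 (25.6%), against 25.3%. Normoxia had the highest mean in 47 (37.6%, against 42% of all). Hypoxia with SU5416 had the lowest in 44 (35.2%, against 35.8%). Kcnv1, Kcna3 and Kcnj2 are among those with the lowest mean in hypoxia.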
